A study of Mus musculus with 9 samples.

Results

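The cytosolic ribosomal protein genes encode the proteins of the large and small subunits of the cytosolic ribosome. They were taken here as every mouse gene whose symbol is Rpl or Rps with a number and at most a closing a, l or x, together with Rplp0, Rplp1, Rplp2 and Rpsa. Of 83 symbols that met this rule, 79 had a probe on the array, 114 probes in all, and each gene was represented by its brightest probe. These 79 genes stood among 27773 genes tested: 45 were of the large subunit, 31 of the small subunit and 3 of the stalk (Rplp0, Rplp1 and Rplp2). Probes without a gene symbol were grouped by accession and counted as genes, while the array held 19096 symbols. Shares and medians of all genes therefore include unnamed accessions, some of which may repeat a gene. Rpl10l, Rpl32l and Rpl6l were among those that matched no probe. Rps4l, which was kept and counted with the small subunit, is annotated as a transcribed pseudogene. The names were checked against the probe accessions only, and ribosomal protein genes have many near-identical pseudogene copies, so a probe may also read transcripts of other loci.

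The study measured RNA from whole hearts of male mice labelled C57BL/6, at an age of 3 to 4 months. The 5 WT and 4 RORasg/sg hearts shared a NIH31 diet from weaning at 3 weeks, and no animal received a treatment. RORasg/sg mice are homozygous for the staggerer allele of Rora, a nuclear receptor that binds DNA at a short motif next to an A- and T-rich stretch. The allele acts in the whole animal and not only in heart muscle, and the study's title places the comparison in work on enlargement of the heart.

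Ribosomes are built in the nucleolus from ribosomal RNA and one copy of nearly every ribosomal protein. In vertebrates most ribosomal protein messages begin with a short stretch of pyrimidines, the 5′ terminal oligopyrimidine motif, through which growth signals acting by way of mTOR set how fast these messages are translated. In a growing heart muscle cell the number of ribosomes rises with cell size. The motif acts on translation, which an array of RNA levels does not measure.

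Pyrimidine runs were looked for around the annotated start sites of the family. A run could lie anywhere in the 40 bases, before the start included, as in Rpl5. Such a run is therefore not the terminal motif itself, and a window without a run does not show that the motif is absent. Below are 40 bases of the sense strand around the RefSeq start (20 before and 20 after, build GRCm38.p6), 5′ to 3′, with every unbroken run of at least 8 C or T in capitals. They belong to the genes of the plot of named genes for which a window was at hand. Windows with a run can so be set beside windows without one. Rpl14, Rplp2, Rps6, Rps15a, Rpl18, Rpl5 and Rpl39 carry a run, and the windows of Rps3, Rpl3l, Rplp0, Rpsa and Rpl19 do not. Rpl19 and Rpl3l have 2 windows each, of which 1 is printed, and the other Rpl19 window holds a run.
Rpl14 (chr9:120571497-120571536, plus strand): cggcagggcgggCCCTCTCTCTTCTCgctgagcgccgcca
Rplp2 (chr7:141447631-141447670, plus strand): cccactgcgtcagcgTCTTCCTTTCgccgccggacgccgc
Rps6 (chr4:86857348-86857387, minus strand): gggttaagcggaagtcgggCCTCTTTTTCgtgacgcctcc
Rps15a (chr7:118116128-118116167, minus strand): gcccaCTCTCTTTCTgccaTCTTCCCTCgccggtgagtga
Rpl18 (chr7:45718051-45718090, plus strand): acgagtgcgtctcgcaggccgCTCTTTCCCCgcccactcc
Rpl5 (chr5:107900508-107900547, plus strand): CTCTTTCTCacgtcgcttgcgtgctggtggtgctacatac
Rpl39 (chrX:37085203-37085242, minus strand): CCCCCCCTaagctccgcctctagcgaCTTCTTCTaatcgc
Rps3 (chr7:99483690-99483729, minus strand): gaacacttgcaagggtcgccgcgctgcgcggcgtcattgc
Rpl3l (chr17:24727806-24727845, plus strand): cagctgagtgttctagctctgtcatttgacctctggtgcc
Rplp0 (chr5:115559447-115559486, plus strand): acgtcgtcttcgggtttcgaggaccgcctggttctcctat
Rpsa (chr9:120127746-120127785, plus strand): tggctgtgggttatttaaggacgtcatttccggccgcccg
Rpl19 (chr11:98026690-98026729, plus strand): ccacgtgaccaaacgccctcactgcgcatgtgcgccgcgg

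Promoter sequence was at hand for 59 of the 79 genes, in 71 windows because 10 genes have more than 1 start. A run of at least 8 C or T lay within the 40 bases in 30 of the 71 windows (42.3%), against 16% of 32851 windows of all genes. On the other strand the share was 7.04%, against 17.7% of all windows. The definition of the run was chosen after the windows had been seen. The letters CCGGAAG, the core that ETS factors bind, occurred on either strand of the full 300-base window in 36.6% of the ribosomal protein windows and in 8.86% of all windows. The TATAAA box occurred in 8.45%, against 13.6%. The short motif of ROR receptors, searched as TAGGTCA or TGGGTCA on both strands, occurred in 2 windows (2.82%, of Rpl11 and Rps15), against 6.45% of all windows. These matches describe letters in a window and are not binding data.

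The 9 arrays differed in brightness before any comparison was made. The 75th percentile of the processed signal was 264 to 773 over the arrays. WT 1, 2, 3 and 5 and RORasg/sg 1 were the brighter arrays (547 to 773), and WT 4 and RORasg/sg 2, 3 and 4 the dimmer ones (264 to 436). Every value below is log2 of a probe's signal minus that of its array's 75th percentile, so a value of 0 lies at that percentile. The brightest Rora probe was lower on each RORasg/sg array (-2.71 to 0.083) than on every WT array (1.51 to 3.29). Its difference was -4.13 (SE 0.60, limma adjusted p = 0.219). WT 4 was the lowest WT array (1.51) and RORasg/sg 1 the highest RORasg/sg array (0.083). Another Rora probe differed by -5.34, also without overlap. A dimmer Rora probe differed by -1.08, and there RORasg/sg 3 (-3.19) lay above every WT array. Where these probes lie relative to the staggerer deletion is not given in the sources used here. RNA of whole tissue was measured, so fewer cells of a type and less RNA per cell cannot be told apart.

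No ribosomal protein gene passed the test between RORasg/sg and WT hearts. In limma with Benjamini-Hochberg adjustment over all genes, 0 of the 79 had an adjusted p under 0.05, against 0.0036% of all genes (1 gene). At an unadjusted p under 0.05 there were 4 of the 79 (5.06%), against 11.5% of all genes: Rpl14, Rpl5 and Rpl19 with lower means in RORasg/sg (6.4% of all genes were), and Rps3 with a higher mean (5.07% of all genes). The mean was higher in RORasg/sg for 51 genes and lower for 28, so that 64.6% were higher, against 66.6% of all genes. The median difference was 0.19, below that of all genes at 0.41. Means differed by a factor of 2 or more in 13 of the 79 (16.5%), against 28.3% of all genes. All 79 passed the filter on dim probes, and 77 were well above background on all 9 arrays.

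Both subunits held genes with higher and with lower means. Of the 45 large-subunit genes 30 had a higher mean in RORasg/sg and 15 a lower one, with a median difference of 0.15 and a range of -2.45 to 1.72. Of the 31 small-subunit genes 18 were higher and 13 lower, with a median of 0.18 and a range of -1.80 to 1.37. The 3 stalk genes were all higher at their brightest probes, with a median of 0.63, while another Rplp0 probe differed by -1.65. The ordered plot of differences shows a flat upper branch and a steep lower one: the highest difference was 1.72 and the lowest -2.45.

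**Figure D1:**
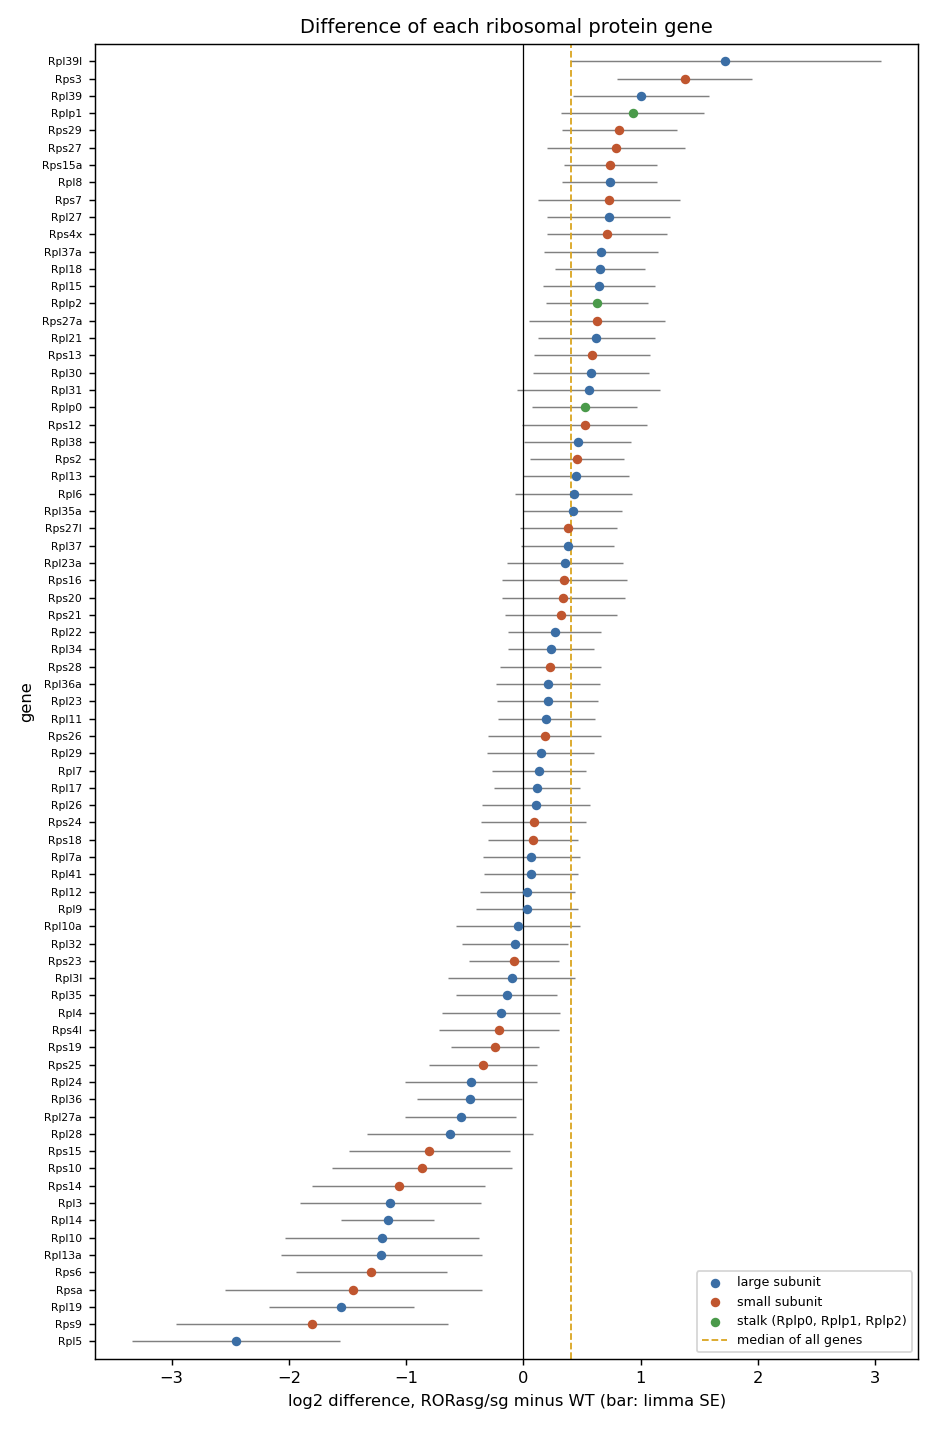
Difference of 75 of the 79 ribosomal protein genes (RORasg/sg mean minus WT mean, log2, horizontal axis), ordered from highest to lowest, with the limma SE as a bar and colour for the subunit. The dashed line is the median of all genes (0.41), and genes of both subunits lie on either side of 0.

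The spread within the RORasg/sg group was wide. The SD over the 4 RORasg/sg arrays was larger than that over the 5 WT arrays for 71 of the 79 genes (89.9%). The share over all genes was 86.1%. The median SD of the family was 0.79 in RORasg/sg and 0.42 in WT. Over all genes it was larger in both groups, at 1.07 in RORasg/sg and 0.51 in WT. Taken as the median deviation of the 79 genes from each gene's WT median, the WT arrays stood at -0.15, 0, 0, 0.60 and 0.09 for WT 1 to 5. The RORasg/sg arrays stood at -0.24, 0.77, 0.32 and 0.25 for RORasg/sg 1 to 4. WT 4 thus lay higher than RORasg/sg 3 and 4, and RORasg/sg 1 lay below every WT array. Over all genes the same medians were -0.016 to 0.17 on the WT arrays and -0.38, 0.58, 0.69 and 0.78 on the RORasg/sg arrays.

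**Figure D2:**
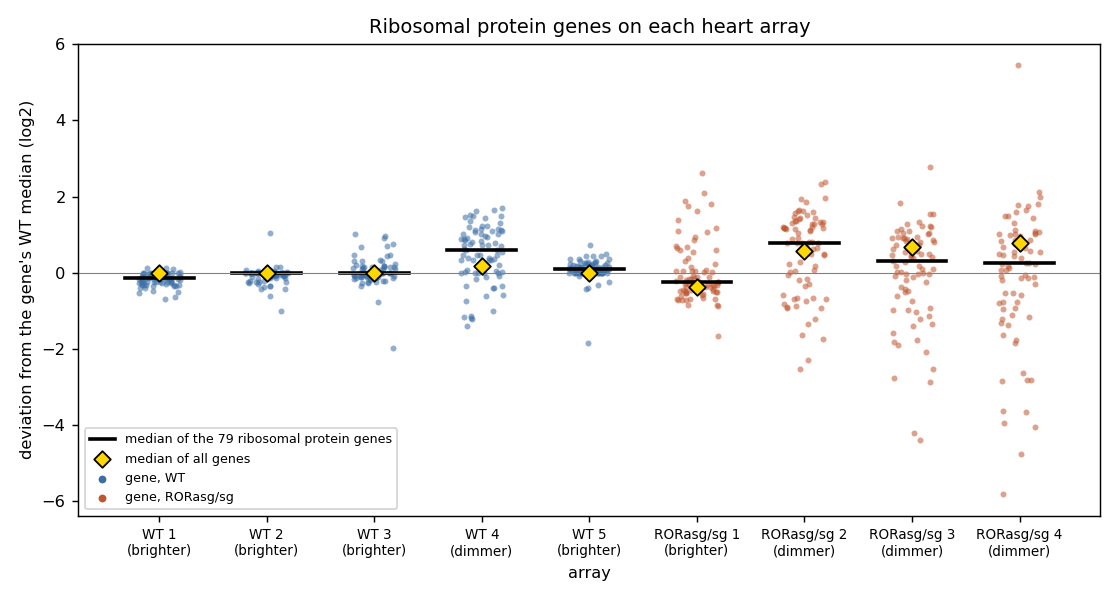
Deviation of each ribosomal protein gene from its own WT median (log2, vertical axis) on each of the 9 arrays (horizontal axis); black bars are the medians of the 79 genes and diamonds the medians of all genes. The points of RORasg/sg 3 and 4 spread widest, and the black bar of WT 4 (0.60) stands above those of the other WT arrays.

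More of these genes separated the arrays by brightness than by genotype. In 33 of the 79 (41.8%) all 4 dimmer arrays were above all 5 brighter ones, against 27% of all genes. In 7 (8.86%) all 4 were below, against 9.25%, among them Rpl19, Rpl24, Rpl3, Rpl5, Rps15 and Rps9. By genotype, the groups did not overlap in 3 genes. Rps15a was higher on every RORasg/sg array (1.27% of the 79, against 1.12% of all genes), and 2 genes, Rpl14 among them, were lower on every one (2.53%, against 1.71%). WT 4 was the highest of the WT arrays for 53 genes (67.1%, against 46.4% of all genes) and the lowest for 15 (19%, against 27.9%). RORasg/sg 1 was the lowest of the RORasg/sg arrays for 42 genes (53.2%, against 56.6%) and the highest for 21 (26.6%, against 19.6%). Each genotype holds a single array of the other brightness, WT 4 and RORasg/sg 1, so brightness and genotype are largely confounded and their parts cannot be fully told apart.

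The stalk genes followed the brightness of the arrays. Rplp0 is the base of the stalk, and Rplp1 and Rplp2 are the acidic proteins that recruit translation factors to the ribosome. Rplp0 was 5.27, 5.50, 5.43, 6.52 and 5.59 on WT 1 to 5 and 5.25, 6.68, 6.30 and 6.50 on RORasg/sg 1 to 4. Rplp1 was 3.82, 4.22, 3.71, 5.54 and 4.06 on the WT arrays and 3.37, 6.02, 5.60 and 5.80 on the RORasg/sg arrays. Rplp2 was 5.62, 5.84, 5.57, 6.58 and 5.95 on the WT arrays and 5.60, 7.12, 6.75 and 6.68 on the RORasg/sg arrays. For each of them WT 4 lay with RORasg/sg 2, 3 and 4, RORasg/sg 1 lay near the other WT arrays (below all of them for Rplp0 and Rplp1), and the groups overlapped. The differences were 0.52 (SE 0.45) for Rplp0, 0.93 (SE 0.61) for Rplp1 and 0.63 (SE 0.44) for Rplp2, with limma adjusted p of 0.496, 0.427 and 0.437. In the 5 brighter arrays alone all 3 turned to -0.19, -0.58 and -0.14. Without RORasg/sg 1 Rplp0 differed by 0.83 and Rplp1 by 1.54. Rplp1 and Rplp0 also turned with array brightness as a covariate, to -0.12 and -0.072. These values are of the brightest probes. Another Rplp0 probe differed by -1.65, and there WT 4 (1.35) was the lowest WT array.

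Among genes with a higher RORasg/sg mean, Rps3 had the smallest p. Rps3 sits where the message enters the small subunit and also has a known role in DNA repair. It was 5.01, 4.94, 5.17, 6.33 and 5.17 on WT 1 to 5 and 4.95, 7.55, 6.99 and 7.30 on RORasg/sg 1 to 4. The 3 dimmer RORasg/sg arrays were above every WT array, while RORasg/sg 1 lay near the lowest WT value. The means differed 2.59-fold (1.37, SE 0.58, limma adjusted p = 0.416). In the 5 brighter arrays the difference was -0.12, and with the mean of the Rps3 probes 0.36.

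Rps15a, a small-subunit protein whose start is shown above, was the gene whose RORasg/sg arrays all lay above the WT arrays. It was 4.80, 4.89, 5.11, 4.14 and 5.12 on the WT arrays and 5.13, 6.03, 5.39 and 5.67 on the RORasg/sg arrays. The lowest RORasg/sg value (5.13) and the highest WT value (5.12) nearly touched, and WT 4 was the lowest array, the reverse of its place for the stalk genes. The difference was 0.74 (SE 0.40, 1.67-fold, limma adjusted p = 0.416). A second, much dimmer Rps15a probe gave 0.88, but its groups overlapped, with RORasg/sg 2 (-3.34) below WT 3 (-2.82). At the brightest probe the difference was 0.15 in the 5 brighter arrays, 1.56 in the 4 dimmer arrays and 0.41 with quantile normalization.

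Rpl8 and Rpl18, both large-subunit proteins, were high on RORasg/sg 1 as well. Rpl8, which lies at the peptidyl transferase centre, was 1.67, 1.73, 2.11, 2.45 and 1.99 on the WT arrays and 3.15, 2.02, 2.71 and 3.01 on the RORasg/sg arrays. Rpl18 was 2.14, 1.74, 2.34, 2.55 and 2.16 on the WT arrays and 3.09, 2.39, 3.17 and 2.71 on the RORasg/sg arrays. In both genes only RORasg/sg 2 fell within the WT range, and the other 3 RORasg/sg arrays were above every WT array. The differences were 0.73 (SE 0.40) for Rpl8 and 0.65 (SE 0.38) for Rpl18, each with a limma adjusted p of 0.416. In the 5 brighter arrays they were 1.28 and 0.998, and in the 4 dimmer arrays 0.13 and 0.21.

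Rpl39, a small large-subunit protein of the exit tunnel, followed brightness instead. It was 4.42, 4.74, 4.42, 6.11 and 4.67 on the WT arrays and 4.24, 6.60, 6.20 and 6.47 on the RORasg/sg arrays. RORasg/sg 1 lay below the WT values and the other 3 RORasg/sg arrays were above them all, with WT 4 close to these. The difference was 1.004 (SE 0.58, limma adjusted p = 0.416), and it turned to -0.33 in the 5 brighter arrays.

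Rpl14 had the smallest p of the 79 genes and was the large-subunit gene whose groups did not overlap. It was 0.79, 0.77, 0.60, 1.22 and 0.34 on WT 1 to 5 and -0.072, -0.97, -0.62 and -0.0011 on RORasg/sg 1 to 4. All 4 RORasg/sg arrays, RORasg/sg 1 included, were below the lowest WT array. The means differed 2.23-fold (-1.16, SE 0.40, limma adjusted p = 0.399). It differed by -0.70 in the 5 brighter arrays and by -1.75 in the 4 dimmer arrays. Rpl14 is 1 of 7 ribosomal protein genes on chromosome 9, which also carries Rora, and these differed by -1.45 (Rpsa) to 0.93 (Rplp1). The part of linkage to Rora was not tested.

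Rpl5 and Rpl19 had the next smallest p. Rpl5, which carries the smallest ribosomal RNA into the large subunit together with Rpl11 and binds Mdm2, was 4.93, 5.06, 5.26, 3.84 and 5.29 on the WT arrays and 4.90, 3.84, 0.67 and 0.29 on the RORasg/sg arrays. Rpl19, which bridges the subunits, was 4.41, 4.47, 4.58, 4.35 and 4.67 on the WT arrays and 4.62, 3.80, 1.71 and 1.64 on the RORasg/sg arrays. In both genes RORasg/sg 3 and 4 were far below every other array and RORasg/sg 1 lay among the WT arrays. The differences were -2.45 (SE 0.88, limma adjusted p = 0.407) and -1.55 (SE 0.62, limma adjusted p = 0.416). In the 5 brighter arrays they were -0.24 and 0.085, and with the mean of a gene's probes -0.92 and -0.71.

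Rps6, a small-subunit protein, also had a lower RORasg/sg mean. It is the substrate of S6 kinase and a common readout of growth signalling. Rps6 was 3.97, 4.12, 4.37, 4.23 and 4.20 on the WT arrays and 4.24, 3.50, 3.21 and 0.57 on the RORasg/sg arrays. RORasg/sg 2, 3 and 4 were below every WT array and RORasg/sg 1 was not. The difference was -1.30 (SE 0.65, limma adjusted p = 0.416), and it became -0.53 without RORasg/sg 4, the array farthest from the WT arrays, and 0.075 in the 5 brighter arrays.

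Rpsa, a small-subunit protein also known as a laminin receptor, had 1 very low array at its brightest probe. That probe was -0.53, -0.10, 0.15, 1.02 and 0.32 on the WT arrays and -0.17, -0.21, 0.94 and -5.67 on the RORasg/sg arrays. RORasg/sg 4 was not well above background, and the other 3 lay within the WT range. The difference of -1.45 (SE 1.09, limma adjusted p = 0.456) became 0.014 without RORasg/sg 4. A second Rpsa probe, well above background on all 9 arrays, gave -0.78, with RORasg/sg 2, 3 and 4 (-1.34, -2.84 and -2.16) below every WT array and RORasg/sg 1 (0.21) above them. Rpl39l, a paralog of Rpl39 best known from testis, had the highest difference of the 79 genes (1.72, SE 1.33). Chosen after its values were seen, it stood at 0.13 and 2.80 on RORasg/sg 3 and 4, at -4.32 and -3.51 on RORasg/sg 1 and 2, and at -4.62 to -1.35 on the WT arrays.

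**Figure D3:**
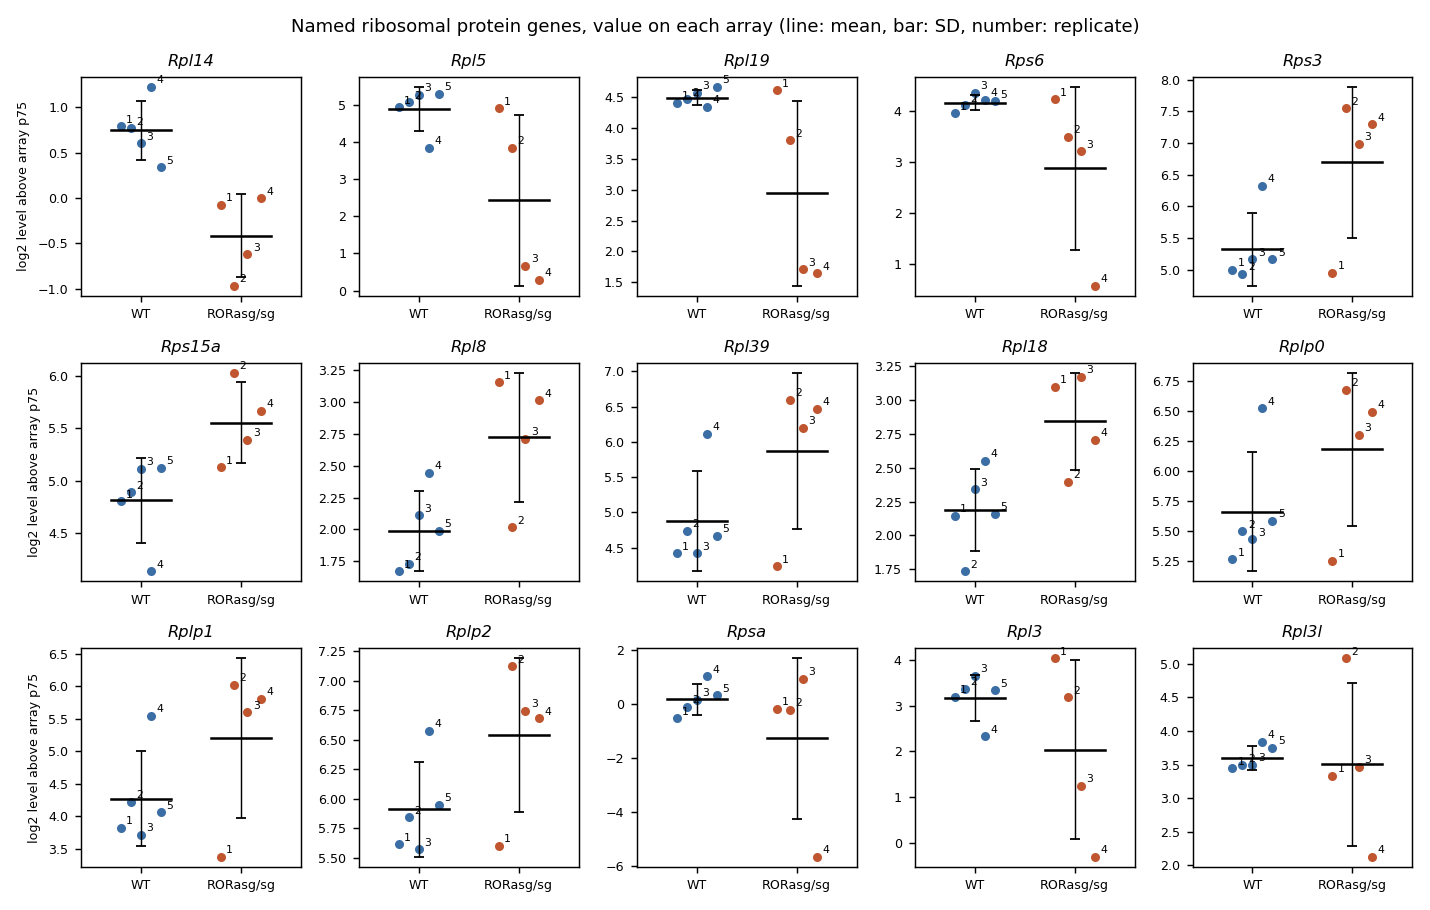
Value of 15 named ribosomal protein genes on each array (log2 above the array's 75th percentile, vertical axis, scaled per gene) for WT and RORasg/sg hearts; each point is a heart numbered by replicate, the line is the mean and the bar the SD. In Rpl14 all 4 RORasg/sg points lie below the WT points, while in the stalk genes WT 4 lies above the other WT points and RORasg/sg 1 far below the other RORasg/sg points.

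Rpl3 and Rpl3l are the pair of the family with a known link to striated muscle. Rpl3 forms part of the peptidyl transferase centre, and Rpl3l is a paralog expressed in heart and skeletal muscle that can take its place. Rpl3 was 3.19, 3.36, 3.66, 2.33 and 3.34 on the WT arrays and 4.04, 3.18, 1.25 and -0.31 on the RORasg/sg arrays. Rpl3l was 3.45, 3.49, 3.49, 3.84 and 3.75 on the WT arrays and 3.33, 5.08, 3.47 and 2.12 on the RORasg/sg arrays. The RORasg/sg arrays covered a wider range than the WT arrays in both genes and lay on both sides of them. The difference was -1.13 (SE 0.77) for Rpl3, with an exact two-sided permutation p of 0.2698 (0.5397 adjusted over the 2 genes). For Rpl3l it was -0.10 (SE 0.54), with an exact two-sided permutation p of 0.6825 (0.6825 adjusted). With 126 ways to split the arrays, the smallest p possible was 0.0159. Rpl3 differed by -0.35 without RORasg/sg 4, by -1.80 without RORasg/sg 1, by 0.65 in the 5 brighter arrays and by 0.34 within slide 1, and Rpl3l by 0.74 within slide 1, by 0.36 without RORasg/sg 4 and by -0.63 without RORasg/sg 2.

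RORasg/sg 1 lay outside the WT range for many of the genes. It was above every WT array for 21 of the 79 genes (26.6%, against 12.6% of all genes) and below every WT array for 37 (46.8%, against 42.6%). The 21 genes included Rpl3, Rpl8, Rpl18, Rps9, Rps14, Rps15 and Rps15a.

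Without RORasg/sg 1 calls appeared. The fit of 5 WT against the other 3 RORasg/sg hearts, which leaves WT 4 as the only dimmer WT array, called 23 of the 79 genes in limma (29.1%), against 37.2% of all genes. Of these, 12 rose (28.3% of all genes did) and 11 fell (8.84% of all genes did). Among those that rose were Rps3 (1.96, SE 0.38, limma adjusted p = 0.0118), Rpl39 (1.55, SE 0.43), Rplp1 (1.54, SE 0.44), Rps7 (1.31, SE 0.45), Rps29 (1.23, SE 0.35) and Rpl27 (1.23, SE 0.35). Among those that fell were Rpl5 (-3.28, SE 0.77), Rps9 (-3.21, SE 0.72), Rpl13a (-2.27, SE 0.45), Rpl19 (-2.11, SE 0.49), Rps14 (-1.92, SE 0.45) and Rpl14 (-1.27, SE 0.34). Those of these genes that were not described above were picked after their values were seen, as were those of the next comparison. With array weights, which lower the part of arrays that fit poorly, 41 of the 79 were called in limma (51.9%), against 55.4% of all genes. Of the 41, 26 were higher (39% of all genes were) and 15 lower (16.4% of all genes).

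The 5 brighter arrays, with RORasg/sg 1 as the lone RORasg/sg heart, gave 0 calls among the 79 in limma. With a variance trend over brightness, an alternative chosen after seeing the data, 8 were called (10.1%), against 4.29% of all genes. The lone heart is then assumed to vary as the WT hearts do. Of these, 5 were higher (1.29% of all genes were), among them Rpl28 (1.72, SE 0.28), Rps9 (2.35, SE 0.41), Rps14 (1.57, SE 0.32) and Rpl8 (1.28, SE 0.23). Rps12 (-0.81, SE 0.14), Rps20 (-0.85, SE 0.16) and Rps27a (-0.75, SE 0.16) were lower (3% of all genes were). Set beside the fit without RORasg/sg 1, with which it shares 4 WT arrays, Rps9 differed by 2.35 in one and -3.21 in the other. The pairs were 1.72 and -1.42 for Rpl28, 1.57 and -1.92 for Rps14, and -0.81 and 1.03 for Rps12. Rps9 shows it on the arrays: it was -0.90, -0.74, 0.27, -0.90 and -0.50 on WT 1 to 5 and 1.88, -1.66, -4.95 and -4.69 on RORasg/sg 1 to 4. RORasg/sg 1 was its highest array and the other RORasg/sg arrays were below every WT array. It was well above background on 3 of the 4 RORasg/sg arrays, so the difference of -3.21 includes a value that is not.

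Within the slides the genes also differed. On slide 1 (WT 1 and 2, RORasg/sg 1 and 2) their median difference was 0.47, against 0.058 for all genes. On slide 2 (WT 3 and 4, RORasg/sg 3 and 4) it was -0.030, against 0.67 for all genes. The median was -0.18 in the 5 brighter arrays (all genes -0.34) and -0.12 in the 4 dimmer arrays (all genes 0.50). The median difference of the ribosomal protein genes was above that of all genes on slide 1 and in the brighter arrays. It was below that of all genes on slide 2 and in the dimmer arrays.

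Different probes of a gene often went different ways. Of the 79 genes 29 had several probes, and 28 of these had another probe that passed the filter. In 11 of the 28 all other probes had the sign of the brightest one, and in 17 some probe had the opposite sign. The share over all genes with several probes was not computed, so these counts are not shown to be particular to the family. For Rpl5 the brightest probe gave -2.45 and the other 0.60. The other Rpl5 probe was 0.98, 1.68, 1.81, 1.57 and 1.75 on the WT arrays and 1.96, 2.71, 2.04 and 1.94 on the RORasg/sg arrays, so that it was above every WT array on all 4. The pair of Rpl19 probes gave -1.55 and 0.12, that of Rps3 1.37 and -0.66, that of Rplp0 0.52 and -1.65, that of Rpl13 0.44 and -1.17, and that of Rps25 -0.35 and 2.15. The differences of the probes are set side by side here, and no test between probes was made. Whether a probe reads the gene, a transcript form or a pseudogene was not tested.

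**Figure D4:**
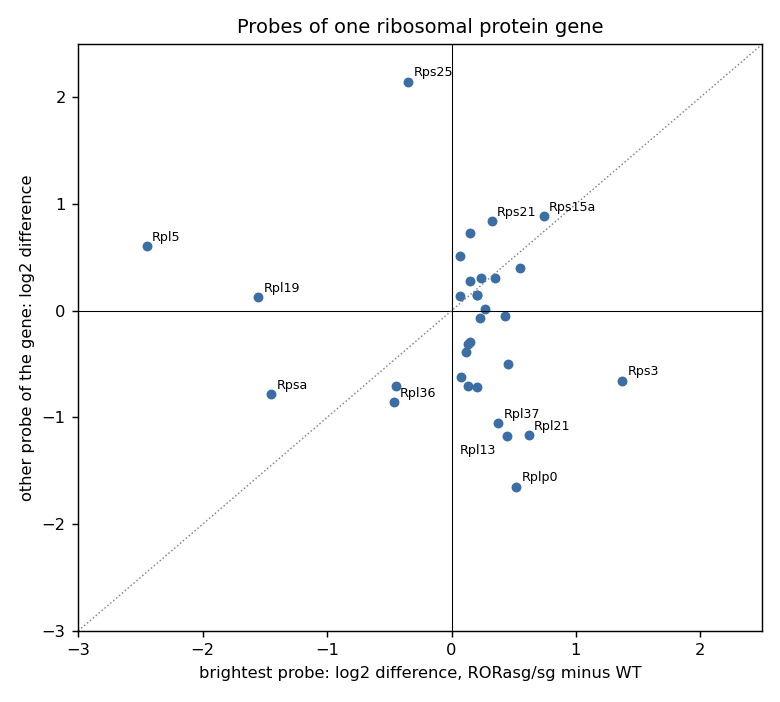
Difference between RORasg/sg and WT (log2) of the brightest probe of a gene (horizontal axis) and of each other probe of the same gene that passed the filter (vertical axis), for 27 of the 28 genes; the dotted line marks equal differences. Points to the upper left and lower right of the 0 lines are probes of opposite sign, which 17 of 28 genes had, Rpl5, Rps25, Rplp0 and Rps3 among them. The share over all genes with several probes was not computed.

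Genes were also set apart by the run of pyrimidines at their start. The 29 genes with a run had a median difference of 0.087 and the 30 without one of 0.22. No test of this difference was made.

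Other genes of ribosome production and translation gave no call either. Each list was tested in the same limma fit, where 0 genes of each had an adjusted p under 0.05. Of 7 ribosomal proteins named outside the rule, 3 were higher and 4 lower, with a median of -0.44. Over all genes 66.6% were higher and the median was 0.41, which the counts and medians of the following lists stand beside. Rps3a1, a small-subunit protein, was 4.54, 4.73, 5.14, 4.37 and 4.95 on the WT arrays and 4.93, 4.13, 3.31 and 1.75 on the RORasg/sg arrays, a difference of -1.22 (-0.62 without RORasg/sg 4). Its 3 dimmer RORasg/sg arrays were below every WT array and RORasg/sg 1 lay among them.

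Of 35 translation factors 12 were higher and 23 lower, with a median of -0.26. Eif4b, a cofactor of the helicase that unwinds message starts, was 3.20 to 3.54 on the WT arrays and 3.38, 1.45, 1.05 and 0.13 on the RORasg/sg arrays. Etf1, the release factor that reads stop codons, was -0.46 to 1.43 on the WT arrays and 1.55, -6.61, -6.45 and -3.04 on the RORasg/sg arrays. In both RORasg/sg 1 lay near the WT arrays and the other 3 were lower than every WT array. Etf1 was well above background on only 2 of the 4 RORasg/sg arrays, so its lowest values are bounds and not levels.

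Of 38 ribosome biogenesis genes 14 were higher and 24 lower, with a median of -0.13; Mybbp1a, a nucleolar protein, differed by -2.22 and Gtpbp4, a GTPase of large-subunit assembly, by -2.77. Of 30 growth-control genes 15 were higher and 15 lower, with a median of -0.10. Eif2ak2 and Eif2ak1, kinases that halt initiation under viral or heme stress, each differed by -1.47. Of 78 mitochondrial ribosomal proteins 43 were higher and 35 lower, with a median of 0.057, and Mrpl54 (-2.49) and Mrpl46 (-1.74) had the smallest p. Of 39 proteasome genes, which degrade proteins and so serve as a set outside translation, 11 were higher and 28 lower, with a median of -0.44. Psma7 differed by -2.10 (-1.17 without RORasg/sg 4) and Psmc2 by -1.57. At an unadjusted p under 0.05 the lists held 0 of 7, 5 of 35, 5 of 38, 5 of 30, 13 of 78 and 7 of 39 genes in this order, against 11.5% of all genes.

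Cell type markers also differed between the arrays. All 8 cardiomyocyte markers were well above background on all 9 arrays, and 7 of the 8 had a lower mean in RORasg/sg, with a median difference of -1.14, against 0.41 over all genes. Their median deviation was -0.0039, -0.51, -2.28 and -1.95 on RORasg/sg 1 to 4. Their summed level, in multiples of each array's 75th percentile, was 776 to 957 over the WT arrays and 432 to 881 over the RORasg/sg arrays. Of 6 fibroblast markers 5 were higher (median 0.78; summed level 61.0 to 103 in WT and 86.3 to 223 in RORasg/sg), and of 6 endothelial markers 4 were lower (median -1.39; 19.3 to 36.6 and 24.9 to 63.8). All 6 lymphocyte markers were higher (median 0.69; 1.88 to 2.96 and 1.28 to 12.9), and 6 macrophage markers split evenly (median 0.19; 11.8 to 31.7 and 13.1 to 38.0). The summed level of the 79 ribosomal protein genes was 2241 to 4157 in WT and 2147 to 5247 in RORasg/sg. Medians were -1.22 for 5 smooth muscle and pericyte markers (2 higher; 52.1 to 98.3 and 49.2 to 86.6), -0.62 for 3 red blood cell markers (1 higher; 5.88 to 11.2 and 1.04 to 21.99) and 0.089 for 4 adipocyte markers (2 higher; 0.62 to 3.03 and 0.97 to 1.77). They were 0.68 for 4 skeletal muscle markers (3 higher; 10.2 to 15.2 and 7.65 to 18.3) and 0.29 for 4 neuron and glia markers (2 higher; 1.84 to 8.55 and 1.63 to 13.9). Actn3 did not pass the filter and Hbb-b1 matched no probe. The part of these markers in the ribosomal protein differences was not tested.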

How the data were processed

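Heart total RNA was amplified with the NuGEN Ovation Pico WTA kit and labelled with Cy3, per the labels' protocols. Feature Extraction 12.0.0.7 read the 1-colour arrays, whose design is 014868 and whose grid uses build mm9, per the file headers. "Agilent Feature Extraction" version 12 is the tool listed in the submitters' processing notes. Its deposited processed intensity is linear, with the background subtracted, and the arrays are not brought to a common scale. The series' deposited table holds identical intensity values (largest relative difference 0, 9 arrays). Further steps by the authors are not given in the sources used here.

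Here 43379 of 45018 spots were non-control. The 758 spots with an outlier flag were dropped, repeat spots of a probe were averaged, and saturation was found in 0 spots. From each log2 value the 75th percentile of its array was subtracted. A probe was kept if it was well above background on 4 or more arrays, and the kept probe of highest mean stood for its gene. RefSeq accessions (GRCm38.p6) named 28223 of 41174 probes, and the other probes were grouped by accession. Since the grid uses another build, this table served for names and for RefSeq's own start windows only. limma 3.58.1 in R 4.3.3 (lmFit, plain eBayes) compared the groups, with Benjamini-Hochberg adjustment over 27773 genes and a threshold of 0.05. The script was tested on simulated data. Rpl3 and Rpl3l also had an exact permutation test (scipy 1.17.1, Python 3.11.15). Arrays with a 75th percentile of at least 500 are called brighter. The number of arrays limits the precision, and the hearts came from separate mice.

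The members and lists were chosen with earlier results of these data known. Named with values are Rpl3, Rpl3l, the stalk genes, Rpsa, the 6 genes with the smallest p in each direction and the 2 with the smallest p of each related list. Some genes that meet this rule are not reported here. Other scalings, background corrections, filters, probe rules, blocks, covariates and subsets of arrays were tried.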

Additional observations from a re-analysis of the deposited data

Results flagged for a closer look

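The groups checked were the WT and the RORasg/sg arrays of the named genes and of the median of the ribosomal protein genes. They are the same hearts read through different genes, many named for a small p, so the groups are not independent. Chance gives about 1 in 20 for a single group, and the count of groups cannot be set against that rate. In 11 of the 54 groups 1 array lay far from the others by Dixon's test. WT 4 was the array in 8 of them. It lay above the other WT arrays for Rplp0 (6.52, others 5.27 to 5.59), Rplp1 (5.54, others 3.71 to 4.22), Rps3 (6.33, others 4.94 to 5.17), Rpl39 (6.11, others 4.42 to 4.74) and Eif2ak1 (3.30, others 1.91 to 2.18). WT 4 lay below them for Rpl5 (3.84, others 4.93 to 5.29), Etf1 (-0.46, others 1.17 to 1.43) and Mrpl54 (2.62, others 3.49 to 3.84). RORasg/sg 1 lay below the other RORasg/sg arrays for Rplp1 (3.37, others 5.60 to 6.02) and Rpl39 (4.24, others 6.20 to 6.60). WT 1 lay below the other WT arrays for Eif4b (3.20, others 3.44 to 3.54). WT 4 was the only dimmer WT array and RORasg/sg 1 the only brighter RORasg/sg array. The cause was not tested.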

How the results depend on the processing

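Over 27 alternatives, the count of ribosomal protein genes past the limma threshold was 0 except without RORasg/sg 1 (23), with array weights (41) and in the 5 brighter arrays with a variance trend (8, chosen after seeing the data, as was the trend alone). Leaving out 1 array gave 0 to 23 genes of the family and 0 to 10329 of all genes, the latter only without RORasg/sg 1. The count of all genes, 1 as reported, was 15374 with array weights, 1190 in the 5 brighter arrays with a trend, and 0 with the replicate block, the slide block, array brightness as a covariate, the mean of a gene's probes, probes well above background on all 9 arrays, within either slide, and in the 5 brighter or 4 dimmer arrays. With the replicate number as a block the family's median was 0.19 and its count 0. Hearts of the same number did not deviate together in every pair (correlations 0.046, -0.0069, -0.33 and 0.39), so the numbers were not taken as pairs. The median difference of the family (0.19) was -0.13 with brightness as a covariate, -0.16 with normexp and quantile normalization, -0.13 with quantile normalization and -0.18 in the 5 brighter arrays, with or without a trend; leaving out 1 array gave 0.030 to 0.34. Minus that of all genes (-0.21) it was -0.61 in the 4 dimmer arrays, 0.17 in the 5 brighter arrays with or without a trend, 0.41 within slide 1 and -0.70 within slide 2; leaving out 1 array gave -0.34 to -0.080. Of 701 values of 26 single genes under these alternatives, 624 kept direction and side of the threshold, 42 newly passed it and 35 reversed. In the 5 brighter arrays, with or without a trend, the difference became 0.10 for Eif2ak1, 0.26 for Etf1, 0.0071 for Mrpl46, 0.22 for Psmc2, 0.085 for Rpl19, 0.65 for Rpl3, -0.33 for Rpl39, -0.19 for Rplp0, -0.58 for Rplp1, -0.14 for Rplp2, -0.12 for Rps3, 0.090 for Rps3a1 and 0.075 for Rps6. Within slide 1 it became 0.34 for Rpl3, 0.74 for Rpl3l and 0.13 for Rpsa, and without 1 RORasg/sg array in turn it ranged from -0.63 to 0.36 for Rpl3l and from -2.19 to 0.014 for Rpsa, highest without RORasg/sg 4 in both. With brightness as a covariate it became -0.072 for Rplp0 and -0.12 for Rplp1. Rplp0 became -0.56 with the mean of its probes and -0.032 in the 4 dimmer arrays. The cause was not tested. Fits of the brighter arrays hold 1 RORasg/sg heart and fits of the dimmer arrays 1 WT heart, so each assumes that the lone heart varies like the others.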
